A study of Homo sapiens with 18 samples.

Results

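Class I antigen presentation genes were followed by name in the deposited count table: 9 genes of 60649, namely HLA-B, HLA-C, HLA-E, HLA-F, B2M, TAP1, TAP2, TAPBP and NLRC5. All 9 passed the filter on low counts, as did 15390 genes in all. The cells were LNCaP, an androgen-responsive prostate cancer line derived from a lymph node metastasis. They received siRNA pools that target UPF1 or RCOR1, or a pool with no target as control, and then R1881, a synthetic androgen, at 5 nM or ethanol as vehicle. Each of the 6 combinations had 3 biological replicates, and every group, vehicle included, was kept in medium without androgen after transfection. RNA was collected 48 h after the treatment began. UPF1 is the RNA helicase of nonsense-mediated decay, and RCOR1 is the scaffold of the CoREST repressor complex. Each target was tested with 1 siRNA pool in 1 cell line.

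Class I molecules show peptides from inside the cell to CD8+ T cells and to natural killer cells. A heavy chain encoded by an HLA gene pairs with beta-2 microglobulin, the product of B2M, and takes up a peptide in the endoplasmic reticulum. The TAP1 and TAP2 proteins form the transporter that carries the peptide in, and tapasin, the product of TAPBP, holds the empty heavy chain at that transporter. NLRC5 is the transactivator that drives these genes together, through promoter elements called the X and Y boxes. Interferons raise the same genes through factors such as IRF1, and many tumours express them weakly.

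The promoters of 4 of these genes are shown because they belong to members described in detail below and differ in the elements they hold. HLA-B, HLA-C and B2M held the Y box and the X2 core, and TAP1 held neither in this window. Each is the 200 bases before the RefSeq transcription start in GRCh38.p14, on the gene's own strand: HLA-B at chr6:31357180-31357379 (minus strand), HLA-C at chr6:31272093-31272292 (minus strand), B2M at chr15:44711317-44711516 (plus strand) and TAP1 at chr6:32853705-32853904 (minus strand). TAP1 has 2 starts in the table; the window of the other, which held no match to any of the motifs searched, is not shown. Capitals mark every match, on either strand, to the Y box (CCAATCAG), the core of the X2 box (TGACG), repeats of the kind that interferon regulatory factors bind (AANNGAAA, or GAAA followed after 2 free bases by GAAA) and the NF-kappaB consensus; overlapping matches run together.
HLA-B: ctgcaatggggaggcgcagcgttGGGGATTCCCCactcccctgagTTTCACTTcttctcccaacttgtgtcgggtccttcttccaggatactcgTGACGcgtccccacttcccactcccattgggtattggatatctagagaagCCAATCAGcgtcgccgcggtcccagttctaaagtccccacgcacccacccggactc
HLA-C: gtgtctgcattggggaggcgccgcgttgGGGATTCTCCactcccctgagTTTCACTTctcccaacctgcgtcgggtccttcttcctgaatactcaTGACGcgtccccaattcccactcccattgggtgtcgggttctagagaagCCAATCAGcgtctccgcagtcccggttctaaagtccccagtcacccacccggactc
B2M: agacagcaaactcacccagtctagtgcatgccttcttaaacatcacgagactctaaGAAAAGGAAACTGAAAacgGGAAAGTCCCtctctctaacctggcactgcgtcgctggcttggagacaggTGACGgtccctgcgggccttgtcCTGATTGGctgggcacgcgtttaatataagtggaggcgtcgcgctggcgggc
TAP1: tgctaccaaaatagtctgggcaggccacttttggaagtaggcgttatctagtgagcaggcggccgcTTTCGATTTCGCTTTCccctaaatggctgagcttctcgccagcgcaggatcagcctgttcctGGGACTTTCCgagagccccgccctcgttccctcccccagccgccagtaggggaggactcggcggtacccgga

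The Y box stood in 4 of the 7 members with a promoter in the table, HLA-B, HLA-C, HLA-F and B2M, against 3.55% of 34943 promoters of this length. It lay between -56 and -49 in both HLA-B and HLA-C, and between -52 and -45, on the opposite strand, in B2M. The X2 core was in HLA-B, HLA-C, B2M and TAP2, and in 18.4% of all promoters. All 7 held AANNGAAA, TAP1 at 1 of its 2 starts (16.1% of all promoters), and HLA-F, B2M, TAP1, TAP2 and TAPBP held the tandem form of GAAA (2.4%). The NF-kappaB consensus was matched in HLA-B, HLA-C, B2M, TAP1 and TAPBP, and in 4.2% of all promoters. In HLA-B its palindrome gave overlapping matches in the run of capitals nearest the 5′ end. No member held the palindromic androgen response element, AGAACA followed after 3 free bases by TGTTCT, which 1 promoter of the 34943 held. A match is a description of the letters and not a binding site.

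Totals per library lay between 10299607 and 17338235 counts. Both siRNA pools lowered their targets: UPF1 stood at 20.5 to 25.9 CPM with UPF1 siRNA against 123 to 155 CPM with control siRNA in vehicle, and RCOR1 at 9.08 to 15.8 CPM with RCOR1 siRNA against 89.7 to 107 CPM with control siRNA in vehicle. In R1881 UPF1 stood at 25.5 to 26.8 CPM with UPF1 siRNA against 141 to 164 CPM with control siRNA, and RCOR1 at 12.3 to 12.8 CPM with RCOR1 siRNA against 68.2 to 85.5 CPM with control siRNA. CPM are counts-per-million values, scaled between libraries. The 10 markers of luminal prostate cells summed to between 4960 and 15300 CPM in every library. Of 14 markers of leukocytes, endothelium and fibroblasts, CD3E, CDH5 and COL1A2 were at 0 everywhere and PTPRC averaged at most 0.05 CPM in any group. Others of the 14 were present: VWF averaged up to 26 CPM in a group, COL1A1 up to 11.7 CPM and COL3A1 up to 10.9 CPM. Libraries of a group differed in the nuclear RNA MALAT1, which stood at 3760 and 4590 CPM in replicates 1 and 2 with UPF1 siRNA in R1881 and at 10800 to 35100 CPM in the other 16 libraries.

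B2M was by far the most abundant of the 9 genes. Per kilobase of exon it averaged 44.8 CPM over the 18 libraries, and its lowest library, at 25.1 CPM per kilobase, lay above the highest library of every other member. TAP1 followed at 6.35, HLA-C at 6.24, TAPBP at 5.02 and HLA-E at 3.72 CPM per kilobase, and the ranges of these 4 genes over the libraries overlapped. HLA-B averaged 1.06, NLRC5 0.646, HLA-F 0.459 and TAP2 0.0948 CPM per kilobase. TAP1 stayed above HLA-B, NLRC5, HLA-F and TAP2 in every library, and TAP2, at 2 to 13 counts a library, stayed below all but HLA-B and HLA-C. The transcripts of the transporter's partners, TAP1 and TAP2, thus stood at very different levels per length.

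**Figure D1:**
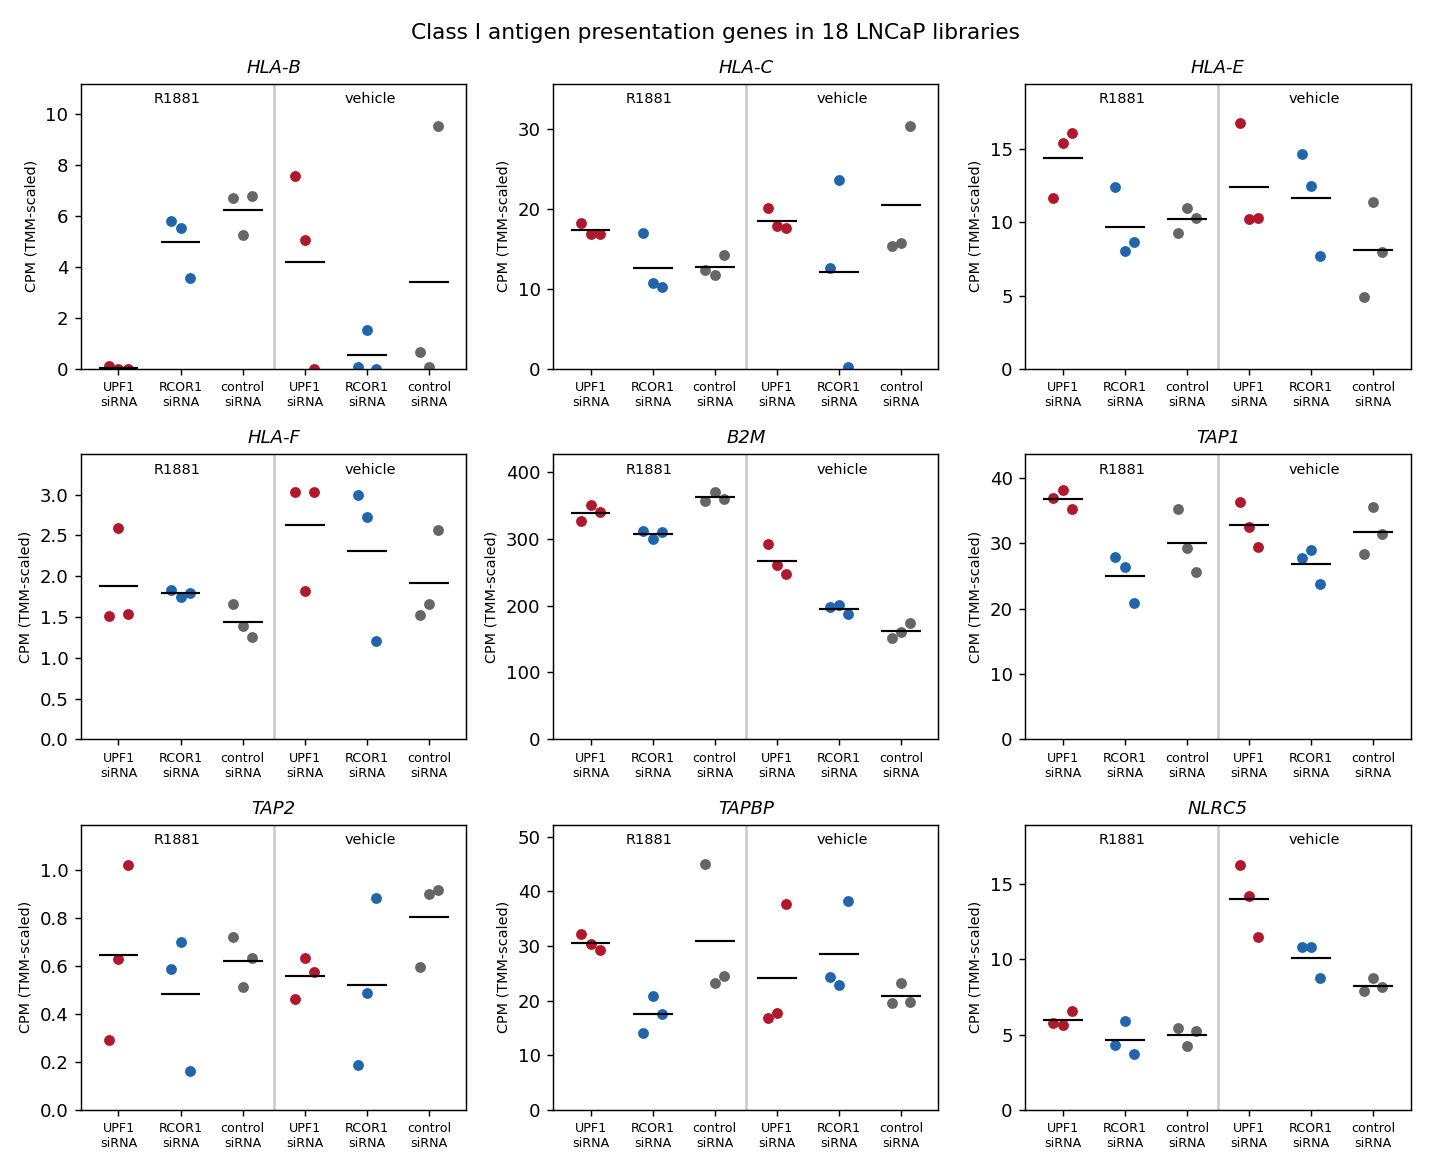
Level of each of the 9 genes in each library, in TMM-scaled CPM (y axis, from 0), by siRNA and treatment (x axis); points are libraries and lines are group means (n = 3). The B2M libraries in R1881 all lie at or above 300 CPM and those in vehicle at or below 292 CPM, and NLRC5 is highest with UPF1 siRNA in vehicle. HLA-B in vehicle runs from 0 to 7.57 CPM with UPF1 siRNA, 0 to 1.54 CPM with RCOR1 siRNA and 0.0694 to 9.53 CPM with control siRNA. In R1881 it runs from 0 to 0.116, 3.58 to 5.79 and 5.26 to 6.78 CPM in the same order.

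The heavy chain genes HLA-B and HLA-C varied between libraries that carry the same label far more than most genes did, which bears on every value of theirs below. HLA-B (ENSG00000234745.13, GRCh38 chromosome 6, 31269491 to 31357188, minus strand) encodes one of the classical heavy chains that present to CD8+ T cells. It had 2, 0 and 0 counts with UPF1 siRNA in R1881, 79, 63 and 44 with RCOR1 siRNA in R1881, and 93, 72 and 75 with control siRNA in R1881. In vehicle it had 115, 64 and 0 counts with UPF1 siRNA, 1, 22 and 0 with RCOR1 siRNA, and 10, 1 and 104 with control siRNA. In R1881 the UPF1 libraries were thus all at or near 0 and the others all at 44 or more, whereas in vehicle every siRNA group held a library at 0 or 1 count beside at least 1 with 22 to 115. Of the 18 libraries, 7 had at most 2 HLA-B counts and the other 11 had at least 10.

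HLA-C (ENSG00000204525.17, chromosome 6, 31268749 to 31272130, minus strand), the other classical heavy chain gene among the 9, had 2 counts in replicate 3 with RCOR1 siRNA in vehicle, beside 202 and 338 counts in the other libraries of that group. All other libraries of the series held 122 to 338 HLA-C counts. The dispersion, edgeR's measure of the spread between libraries of a group, was 1.53 for HLA-B, rank 6 among 15390 genes, and 0.381 for HLA-C, rank 24. A dispersion above 0.3 was found for 45 of the 15390 genes (0.292%), and for 5 of the 84 tested genes (5.95%) of the stretch of chromosome 6 that holds the HLA genes, from upstream of HLA-F to downstream of TAPBP. Both counts include HLA-B and HLA-C themselves. The median dispersion was 0.0152 in that stretch and 0.0137 over all genes. B2M, with a dispersion of 0.00668, was steadier than most genes, and TAP1 and NLRC5 stood near the middle of all genes. TAPBP, TAP2, HLA-E and HLA-F had dispersions of 0.0438 to 0.0655, within the upper 18.3% of genes. What sets HLA-B and HLA-C high or low in a library was not tested.

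**Figure D2:**
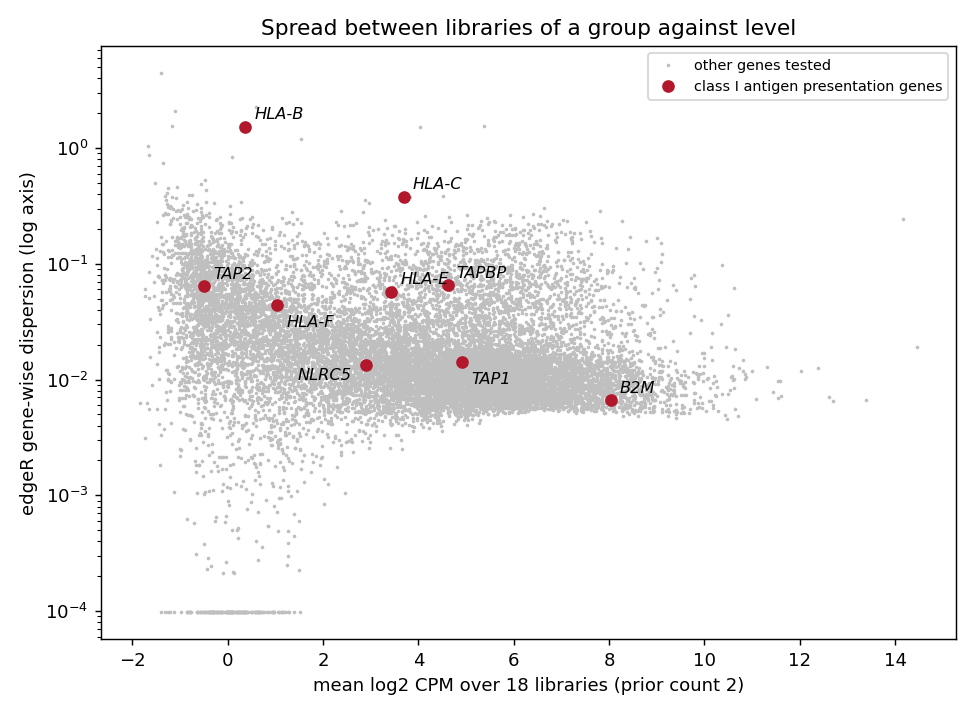
Gene-wise dispersion (y axis, log scale) against mean log2 CPM over 18 libraries (x axis) for the 15390 genes tested; red points are the 9 class I antigen presentation genes. HLA-B (1.53) and HLA-C (0.381) lie above nearly all genes of their level, and B2M (0.00668) near the lower edge.

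The design asks how the knockdowns bear on the androgen response, and the response to R1881 within each siRNA arm comes first. B2M rose and NLRC5 fell with R1881 in all 3 arms, so the light chain and the transactivator of the class I genes moved in opposite directions. No heavy chain gene and neither transporter gene was called in the arms with RCOR1 or control siRNA. A gene was called at an adjusted p below 0.05 by edgeR's quasi-likelihood test, with adjustment over all 15390 genes. Of the 9 genes, 3 were called with UPF1 siRNA (41.6% of all genes), 2 with RCOR1 siRNA (31.2%) and 2 with control siRNA (37.7%), so the counts were close to the share of all genes that passed. The median log2 fold changes of the 9 genes were 0.15, -0.10 and -0.08 in those arms, beside -0.01, 0.02 and 0.02 over all genes.

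B2M (ENSG00000166710.21, chromosome 15, 44711487 to 44718877, plus strand) lies outside the HLA region and encodes the light chain of every class I molecule. In R1881 it stood at 326, 351 and 340 CPM with UPF1 siRNA, at 311, 300 and 310 CPM with RCOR1 siRNA, and at 357, 370 and 360 CPM with control siRNA. In vehicle it stood at 292, 260 and 248 CPM with UPF1 siRNA, at 198, 201 and 187 CPM with RCOR1 siRNA, and at 152, 161 and 174 CPM with control siRNA. Every R1881 library lay above every vehicle library, and the vehicle groups were ordered UPF1, RCOR1, control without overlap. The log2 fold change with R1881 was 0.35 ± 0.07 with UPF1 siRNA (SE, n = 3 each; edgeR adjusted p = 8.6e-04), 0.65 ± 0.07 with RCOR1 siRNA (edgeR adjusted p = 2.2e-06) and 1.16 ± 0.07 with control siRNA (edgeR adjusted p = 1.9e-09).

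The B2M response was smaller under each knockdown, by the test of the difference itself. The response with UPF1 siRNA minus that with control siRNA was -0.81 ± 0.10 on the log2 scale (SE; edgeR adjusted p = 3.4e-04), and B2M was the 1 member called of 9, where 2.72% of all genes were called. With RCOR1 siRNA the difference was -0.51 ± 0.10 (edgeR adjusted p = 0.023), again 1 of 9, where 0.767% of all genes were called. The UPF1 difference was called under all 25 alternative settings, with adjusted p up to 0.026 and values between -0.86 and -0.66. The RCOR1 difference kept its sign, between -0.55 and -0.45, but was called under 11 of them, and it was lost with relative log expression size factors, with only the groups compared and without any 1 of 9 libraries, among them each RCOR1 and each control library in R1881 (edgeR adjusted p up to 0.27). Both differences use the same control libraries.

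NLRC5 (ENSG00000140853.16, chromosome 16, 56989485 to 57083531, plus strand) stood at 5.75, 5.67 and 6.55 CPM with UPF1 siRNA in R1881 against 16.3, 14.2 and 11.5 CPM with UPF1 siRNA in vehicle. With RCOR1 siRNA it stood at 4.33, 5.88 and 3.74 CPM in R1881 against 10.8, 10.8 and 8.75 CPM in vehicle. With control siRNA it stood at 5.41, 4.24 and 5.24 CPM in R1881 against 7.88, 8.74 and 8.16 CPM in vehicle. In each arm the R1881 libraries lay below the vehicle libraries without overlap. The log2 fold changes were -1.23 ± 0.16 with UPF1 siRNA (SE; edgeR adjusted p = 1.8e-05), -1.13 ± 0.17 with RCOR1 siRNA (edgeR adjusted p = 8.5e-05) and -0.74 ± 0.17 with control siRNA (edgeR adjusted p = 0.0027). The arms were not shown to differ: the interaction was -0.49 ± 0.24 for UPF1 siRNA (edgeR adjusted p = 0.26) and -0.39 ± 0.24 for RCOR1 siRNA (edgeR adjusted p = 0.64).

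HLA-B was the other member called in the UPF1 arm, where it fell to 2 counts in all 3 R1881 libraries together, against 179 in the 3 vehicle libraries. Scaled by library size, the ratio was 0.0108, with a 95% counting interval of 0.00129 to 0.0395 that covers counting error only (edgeR adjusted p = 0.02). A vehicle library of that arm was itself at 0 counts, so the groups overlapped, and the call was lost without replicate 1 of the vehicle group and without replicate 1 or 2 of the R1881 group (edgeR adjusted p up to 0.24). With RCOR1 siRNA HLA-B pointed the other way, with 186 counts in R1881 and 23 in vehicle. The fitted log2 fold change there was 3.19 ± 1.3 and was not called (edgeR adjusted p = 0.074). With control siRNA it was 0.99 ± 0.99, also not called (edgeR adjusted p = 0.48). Neither knockdown arm was shown to differ from the control arm in its HLA-B response. The interaction was -7.25 ± 2.3 for UPF1 siRNA (edgeR adjusted p = 0.11), and that for RCOR1 siRNA was not called (edgeR adjusted p = 0.74). The UPF1 and RCOR1 responses were not tested against each other. HLA-C, HLA-E and HLA-F had log2 fold changes between -0.67 and 0.33 in the 3 arms, none called. TAP1 had 0.17, -0.10 and -0.08, and TAPBP 0.35, -0.70 and 0.57, with UPF1, RCOR1 and control siRNA, none called.

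**Figure D3:**
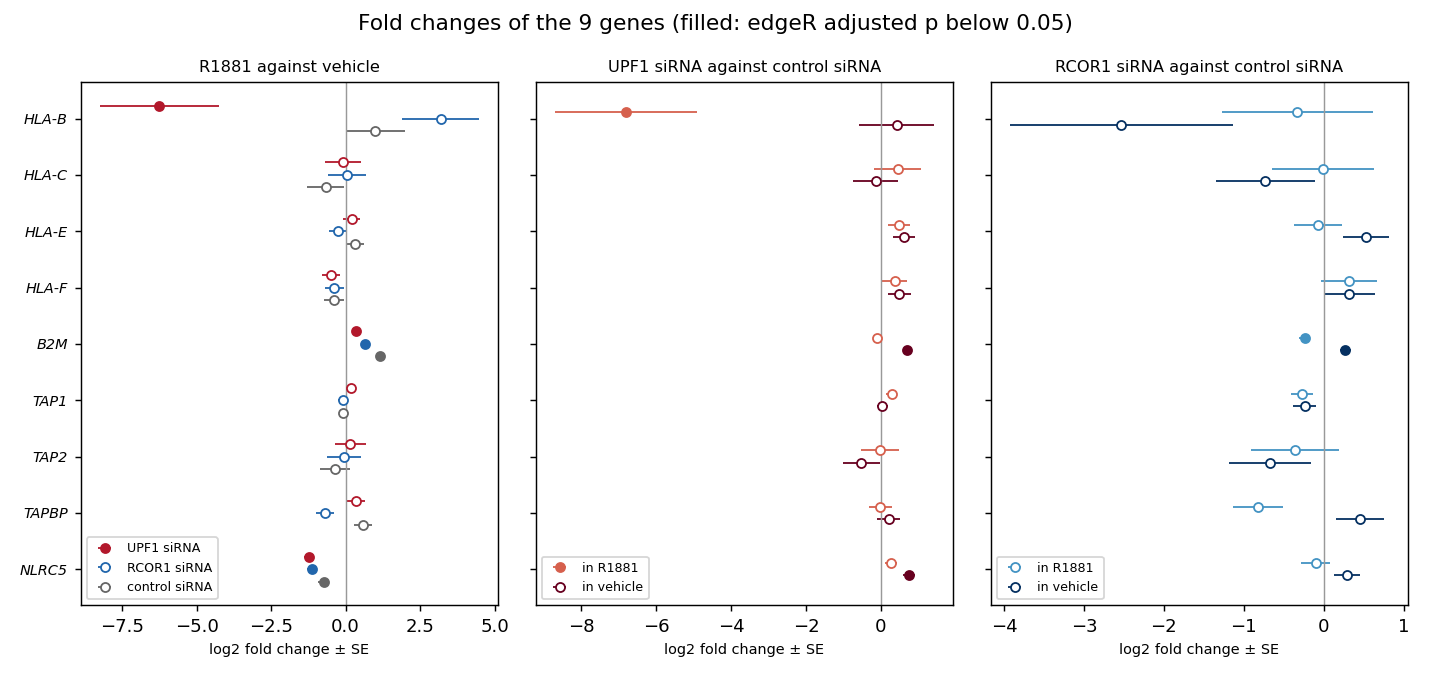
Log2 fold changes of the 9 genes (rows) with SE bars: R1881 against vehicle in each siRNA arm (left), UPF1 siRNA against control siRNA (middle) and RCOR1 siRNA against control siRNA (right), each in R1881 and in vehicle; filled points passed an edgeR adjusted p of 0.05, and the x axes differ in range. B2M is filled right of 0 and NLRC5 left of 0 in all 3 arms on the left, and HLA-B carries the widest bars; its filled points rest on 2 counts in the UPF1 libraries in R1881.

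B2M and NLRC5 rose with UPF1 siRNA in vehicle, and neither was called in R1881. In vehicle B2M averaged 267 ± 23 CPM with UPF1 siRNA and 163 ± 11 CPM with control siRNA (SD, n = 3 each), a log2 fold change of 0.71 ± 0.07 (SE; edgeR adjusted p = 1.3e-06). NLRC5 averaged 14 ± 2.43 CPM with UPF1 siRNA and 8.26 ± 0.436 CPM with control siRNA, a log2 fold change of 0.76 ± 0.16 (SE; edgeR adjusted p = 0.0014). The groups did not overlap for either gene, and both calls held under all 25 alternative settings. They were 2 of 9 genes, where 34.6% of all genes were called; the median of the 9 was 0.43, beside 0.03 over all genes. The other 7 genes were not called, among them HLA-E at 0.62 ± 0.29 (edgeR adjusted p = 0.12) and TAP1 at 0.04 ± 0.14 (edgeR adjusted p = 0.84).

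In R1881 B2M had a log2 fold change of -0.10 ± 0.07 between UPF1 and control siRNA (SE; edgeR adjusted p = 0.31) and NLRC5 of 0.27 ± 0.17 (edgeR adjusted p = 0.26). The NLRC5 effect was not shown to differ between treatments (interaction -0.49 ± 0.24, edgeR adjusted p = 0.26). In R1881 the UPF1 libraries lay above the control libraries without overlap for NLRC5 and HLA-C, and below them for B2M. The share of all genes that separated in this way was not counted, so the separation only describes these libraries. HLA-C was not called (log2 fold change 0.45 ± 0.62, edgeR adjusted p = 0.62). Here HLA-B was the 1 member called of 9, where 33.3% of all genes were called. It had 2 counts in the 3 UPF1 libraries and 240 in the 3 control libraries, a ratio of 0.00744 with a 95% counting interval of 8.96e-04 to 0.0272 (edgeR adjusted p = 0.012). HLA-B was not called in vehicle, where its libraries spread from 0 to 115 counts with UPF1 siRNA and from 1 to 104 with control siRNA. The call in R1881 was lost when replicates 1 and 2 with UPF1 siRNA, the libraries low in MALAT1, were both left out (edgeR adjusted p = 0.2), which leaves 1 library in that group. HLA-E, a non-classical heavy chain read by natural killer cells, stood at 11.7, 15.4 and 16.1 CPM with UPF1 siRNA in R1881 against 9.3, 11 and 10.3 CPM with control siRNA. These groups did not overlap, but the difference was not called (log2 fold change 0.49 ± 0.29, edgeR adjusted p = 0.21).

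With RCOR1 siRNA B2M rose slightly in vehicle and fell slightly in R1881, and no other member was called. In vehicle B2M averaged 196 ± 7.32 CPM with RCOR1 siRNA and 163 ± 11 CPM with control siRNA (SD, n = 3 each), a log2 fold change of 0.27 ± 0.07 (SE; edgeR adjusted p = 0.02). In R1881 it averaged 307 ± 5.73 CPM with RCOR1 siRNA and 362 ± 6.93 CPM with control siRNA, a log2 fold change of -0.24 ± 0.07 (SE; edgeR adjusted p = 0.034). This was 1 of 9 genes in each case, where 11.5% of all genes were called in vehicle and 12.4% in R1881. Neither call was firm. The vehicle call was lost under 9 of 25 alternative settings, among them the omission of replicate 1 or 2 with either siRNA in vehicle, with values between 0.22 and 0.32 and edgeR adjusted p up to 0.19. The R1881 call was lost under 14, among them the omission of any 1 of the 6 libraries compared and DESeq2, with values between -0.24 and -0.15 and adjusted p up to 0.42. NLRC5 averaged 10.1 ± 1.18 CPM with RCOR1 siRNA and 8.26 ± 0.436 CPM with control siRNA in vehicle, without overlap, and was not called (log2 fold change 0.29 ± 0.16, edgeR adjusted p = 0.28). TAPBP in R1881 stood at 14.1, 20.9 and 17.6 CPM with RCOR1 siRNA against 45.1, 23.2 and 24.5 CPM with control siRNA, also without overlap and not called (log2 fold change -0.82 ± 0.31, edgeR adjusted p = 0.096).

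Set directly against each other, the knockdowns differed in B2M and NLRC5 in vehicle and in the peptide-loading genes TAP1 and TAPBP in R1881. In vehicle B2M was higher with UPF1 than with RCOR1 siRNA by 0.45 ± 0.07 (SE, log2; edgeR adjusted p = 1.3e-04) and NLRC5 by 0.47 ± 0.16 (edgeR adjusted p = 0.03), 2 of 9 genes where 33.1% of all were called. The NLRC5 difference was lost under 9 of 25 settings, among them without replicate 1 or 2 with UPF1 siRNA or replicate 2 or 3 with RCOR1 siRNA (edgeR adjusted p up to 0.14). In R1881, 3 of 9 genes were called, where 40.6% of all were. TAP1 (ENSG00000168394.12, chromosome 6, 32845209 to 32853978, minus strand) stood at 36.9, 38.1 and 35.2 CPM with UPF1 siRNA and 27.9, 26.3 and 20.8 CPM with RCOR1 siRNA. The groups did not overlap, and the log2 fold change was 0.56 ± 0.14 (SE; edgeR adjusted p = 0.0044). TAPBP (ENSG00000231925.12, chromosome 6, 33299694 to 33314387, minus strand) stood at 32.3, 30.4 and 29.2 CPM with UPF1 siRNA and 14.1, 20.9 and 17.6 CPM with RCOR1 siRNA. Its log2 fold change of 0.81 ± 0.31 passed narrowly (SE; edgeR adjusted p = 0.045) and was lost under 13 of 25 settings, among them the omission of any 1 of the 6 libraries compared. HLA-B was lower with UPF1 siRNA, with 2 counts against 186 with RCOR1 siRNA, a ratio of 0.00928 with a 95% counting interval of 0.00112 to 0.034 (edgeR adjusted p = 0.016), a call that was lost without replicate 1 or 2 with UPF1 siRNA. Neither TAP1 nor TAPBP was called for either siRNA against control siRNA.

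The remaining members were low or shared sequence with other genes. TAP2 (ENSG00000204267.16, chromosome 6, 32821833 to 32838780, minus strand), the partner of TAP1 in the transporter, ranged from 0.163 to 1.02 CPM, and 32.3% of its exon bases are shared with a gene annotated on the same strand. HLA-F (ENSG00000204642.14, chromosome 6, 29722775 to 29738528, plus strand), a non-classical heavy chain gene, ranged from 1.2 to 3.03 CPM, and 28.5% of its exon bases overlap other genes on the opposite strand. HLA-E (ENSG00000204592.9, chromosome 6, 30489467 to 30494205, plus strand) ranged from 4.9 to 16.8 CPM. None of the 3 was called in any of the 11 contrasts. Exon bases of HLA-B, HLA-C and TAP1 overlap other genes as well. The share was 18.9% for HLA-B (1.1% on the same strand), with HLA-C among the genes overlapped. It was 1.4% for HLA-C, on the same strand, and 9.5% for TAP1, on the opposite strand. Windows of 50 transcript bases found in other genes made up 2.54% of HLA-B, 6.71% of HLA-C, 5.13% of HLA-E, 1.7% of HLA-F, 1.07% of TAP1, 35.8% of TAP2, 5.99% of TAPBP and 0% of B2M and NLRC5. The TAPBP windows lay in 380 other genes. At 100 bases the share was 35.2% for TAP2, 0.6% for HLA-E and 0.275% for HLA-C, and 0% for the other 6 members. Reads that fall in such windows are of uncertain assignment, for TAPBP as for the HLA genes, TAP1 and TAP2, while B2M and NLRC5 shared none at either length.

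The regulators of these genes did not all move with them. In vehicle, IRF1, a transcription factor of the interferon response, averaged 18.2 ± 3.12 CPM with UPF1 siRNA and 7.83 ± 0.869 CPM with control siRNA (SD, n = 3 each; log2 fold change 1.22 ± 0.15, edgeR adjusted p = 1.1e-05). RFX5, the DNA-binding subunit of the complex at the X box, went the other way, with 58.9 ± 5.76 CPM with UPF1 siRNA and 108 ± 7.93 CPM with control siRNA (log2 fold change -0.87 ± 0.09, edgeR adjusted p = 1.9e-06). Both were called in the same directions in R1881, where B2M and NLRC5 were not called. JAK1, the kinase shared by the interferon receptors, averaged 8.51 to 13.9 CPM over the groups and was not called for either siRNA. With RCOR1 siRNA IRF1 was lower in R1881 (log2 fold change -0.57 ± 0.16, edgeR adjusted p = 0.026), and RFX5 was not called. Of 13 tested class I transcription factors, 3 rose and 2 fell with UPF1 siRNA in vehicle, where 34.6% of all genes were called and 18.5% rose, so their share in vehicle was near that of all genes. In R1881 4 of the 13 rose and 3 fell with UPF1 siRNA, where 17.6% of all genes rose and 15.7% fell.

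With R1881 and control siRNA, RFX5 fell beside NLRC5 (log2 fold change -0.46 ± 0.09, edgeR adjusted p = 5.5e-04), and NFKB1 fell (-0.58, edgeR adjusted p = 2.0e-05). IRF1 stood at 0.21 and was not called (edgeR adjusted p = 0.31). All 9 tested NF-kappaB targets rose in this contrast, where 20.1% of all genes rose; their median log2 fold change was 1.77, beside 0.02 over all genes, among them TNFAIP3 at 2.36 and TRAF1 at 3.51. With UPF1 siRNA in vehicle 7 of those 9 rose, where 18.5% of all genes rose. With R1881, 5 of the 9 rose in the UPF1 arm (21.6% of all genes) and 5 in the RCOR1 arm (16.3%). B2M was called higher in all of these contrasts. With UPF1 siRNA in R1881 3 of the 9 targets rose (17.6% of all genes) and B2M was not called. With RCOR1 siRNA in vehicle, where B2M was called higher, the median log2 fold change of the 9 targets was 0.06. With RCOR1 siRNA in R1881, where B2M was called lower, 2 of the 9 fell (12.4% of all genes called either way). With UPF1 against RCOR1 siRNA 6 rose in vehicle (33.1% called either way), where B2M was called higher. In R1881 5 rose (40.6%), and B2M was not called. A link between these targets and B2M was not tested.

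**Figure D4:**
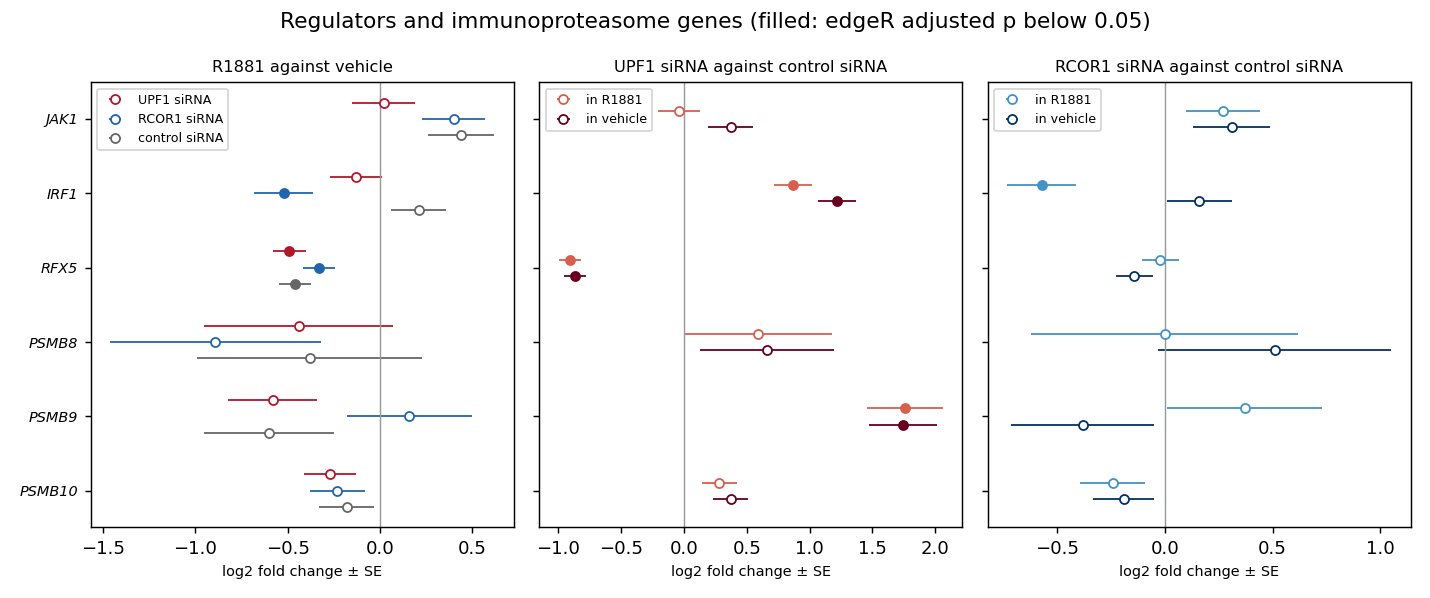
Log2 fold changes with SE bars of JAK1, the transcription factors IRF1 and RFX5 and the immunoproteasome subunits PSMB8, PSMB9 and PSMB10 (rows), for the same contrasts as the plot of the 9 genes; filled points passed an edgeR adjusted p of 0.05 and the x axes differ in range. IRF1 and PSMB9 are filled right of 0 and RFX5 left of 0 with UPF1 siRNA in both treatments.

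Most interferon-stimulated genes rose with UPF1 siRNA in vehicle, beside 2 of the 9 class I genes. In vehicle 20 of 25 type I interferon-stimulated genes were higher with UPF1 siRNA, where 18.5% of all genes were higher, with a median log2 fold change of 1.23, beside 0.03 over all genes. The largest rises were in RSAD2 (2.72), IFIT3 (2.08), XAF1 (2.01) and OASL (2.01). Of 10 tested genes that interferon gamma induces, 8 rose, led by CXCL11 (2.83) and CXCL10 (2.16). In R1881 14 of the 25 rose, where 17.6% of all genes rose, and SAMD9 fell, with a median of 0.75. With RCOR1 siRNA 4 of the 25 rose in vehicle (5.31% of all genes) and 1 in R1881 (5.06%). Among sensors of foreign RNA, 4 of 8 rose with UPF1 siRNA in vehicle, including DHX58 (1.79) and IFIH1 (1.02). Interferon gamma itself (IFNG) had 0 counts in all 18 libraries, and the other interferon genes listed averaged at most 0.522 CPM in any group.

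Some markers of other cell types moved beside these gains, at low levels. Their sum was 44.6 to 51.3 CPM with UPF1 siRNA in vehicle against 23.2 to 29 CPM with control siRNA in vehicle, of 14 markers with CD3E, CDH5 and COL1A2 at 0 throughout. In R1881 it was 21.2 to 24.9 CPM with UPF1 siRNA against 9.49 to 11.8 CPM with control siRNA. With UPF1 siRNA 2 of 4 tested markers were called higher in each treatment (18.5% of all genes in vehicle, 17.6% in R1881). In vehicle VWF averaged 26 CPM with UPF1 siRNA against 11.7 CPM with control siRNA, and COL3A1 10.9 against 3.93 CPM. COL1A1 did not rise there, at 9.21 against 9.48 CPM. The part of these transcripts, mainly VWF, COL1A1 and COL3A1, in the B2M and NLRC5 values was not tested, and in bulk RNA fewer expressing cells and less RNA per cell cannot be told apart. Class II genes, which mark professional antigen-presenting cells, summed to 6.5 to 14.7 CPM over the 11 listed. CD74 averaged at most 0.157 CPM in any group, and 3 of the 11 passed the low-count filter. Group means of these 3 ran from 2.86 to 10.2 CPM for HLA-DQB1, 2.6 to 5.44 CPM for HLA-DMA and 0.67 to 1.41 CPM for HLA-DMB. With RCOR1 siRNA 1 of the 3 was called higher in each treatment (5.31% of all genes in vehicle, 5.06% in R1881). With UPF1 siRNA 1 of the 3 was called higher in R1881 (17.6% of all genes), and none was called in vehicle. With R1881 1 was called lower in each arm (31.2% to 41.6% of all genes called either way).

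The steps before and after peptide transport changed gene by gene. PSMB9, an interferon-inducible proteasome subunit encoded beside TAP1, averaged 3.17 ± 0.865 CPM with UPF1 siRNA and 0.956 ± 0.199 CPM with control siRNA in vehicle (SD, n = 3 each; log2 fold change 1.74 ± 0.27, edgeR adjusted p = 1.1e-04). It was also higher in R1881 (1.76 ± 0.3, edgeR adjusted p = 4.1e-04), whereas PSMB8 and PSMB10 were not called. Of 9 peptide loading and trimming genes, 5 rose and 1 fell with UPF1 siRNA in each treatment, where 18.5% of all genes rose and 16% fell in vehicle, and 17.6% rose and 15.7% fell in R1881. ERAP1, the protease that trims peptides in the endoplasmic reticulum, averaged 90.4 ± 2.31 CPM with UPF1 siRNA and 42.2 ± 4.14 CPM with control siRNA in vehicle (log2 fold change 1.10 ± 0.1, edgeR adjusted p = 6.7e-07). CANX, the chaperone calnexin that folds new heavy chains, averaged 158 ± 25.6 CPM with UPF1 siRNA and 389 ± 44.9 CPM with control siRNA (log2 fold change -1.30 ± 0.14, edgeR adjusted p = 3.7e-06). With RCOR1 siRNA PDIA3, another loading chaperone, fell in vehicle (-0.33) and in R1881 (-0.41), and PSME2, a proteasome activator subunit, fell by 0.49 and 0.45 (edgeR adjusted p between 1.5e-04 and 0.0069). Of the 9 loading and trimming genes, RCOR1 siRNA called 1 in vehicle and 2 in R1881, and 1 of 5 immunoproteasome genes in each. Over all genes 11.5% were called in vehicle and 12.4% in R1881, so the loading genes were near that share. Genes reported to repress class I numbered 10, the siRNA target RCOR1 among them. With UPF1 siRNA in vehicle 5 fell and 1 rose, where 16% of all genes fell and 18.5% rose. The falls in vehicle were led by the DNA methyltransferase DNMT1 (-1.57) and the histone methyltransferase EZH2 (-0.89). In R1881, where no member was called higher with UPF1 siRNA, 6 of the 10 fell and 1 rose (15.7% and 17.6% of all genes).

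Among class I-like genes outside the 9, 4 were tested: MR1, HFE, AZGP1 and MICA. With R1881 all 4 were called in the control arm (37.7% of all genes) and in the UPF1 arm (41.6%). UPF1 siRNA called 2 of the 4 in vehicle (34.6%) and 3 in R1881 (33.3%). RCOR1 siRNA called 1 in vehicle (11.5%) and 2 in R1881 (12.4%). MR1, which presents vitamin metabolites to T cells and also pairs with beta-2 microglobulin, averaged 34.8 ± 2.04 CPM with UPF1 siRNA, 22.7 ± 1.5 CPM with RCOR1 siRNA and 14.2 ± 0.77 CPM with control siRNA in vehicle (SD, n = 3 each). It was called higher for both siRNAs in vehicle, at 1.30 and 0.68 on the log2 scale (edgeR adjusted p = 4.9e-07 and 0.0011), and in R1881, at 1.35 and 0.56 (edgeR adjusted p = 8.0e-07 and 0.0064). HFE, an iron regulator of class I form, rose with UPF1 siRNA by 0.51 in vehicle and 1.35 in R1881. AZGP1, a secreted class I-like glycoprotein, averaged 175 ± 26.4 CPM in R1881 and 17.2 ± 2.9 CPM in vehicle with control siRNA (log2 fold change 3.34 ± 0.14, edgeR adjusted p = 3.0e-11). Like B2M, it rose less with R1881 under UPF1 siRNA: the difference between the responses was -1.26 ± 0.19 (edgeR adjusted p = 0.0019). MR1 and HFE fell with R1881 in the control arm (-0.62 and -1.40), as NLRC5 did.

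The 9 genes did not follow a common pattern over the 18 libraries. Pearson's r of log2 CPM between pairs of them ran from -0.54, for HLA-B and TAPBP, to 0.54, for HLA-F and NLRC5, and was -0.53 for B2M and NLRC5. These values describe libraries that share treatment groups and depth. The genes most like B2M were AHNAK and RHOU (r = 0.97 each) and MYL12A (0.96). Those most like NLRC5 were AKR1C3, HOXC12 and TNFRSF21 (0.95 each), and those most like TAP1 were RNPEP and PITPNM1 (0.93 each) and PTDSS2 (0.92). For the noisier HLA-B the highest was 0.72. The mean of the 9 genes was followed most closely by GPR153, at 0.77.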

How the data were processed

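Total RNA of 18 LNCaP samples was sequenced after removal of ribosomal RNA, per the labels' protocols. The authors deposited raw read counts per gene and library, not normalized. The submitters' processing notes name bcl2fastq 2.20, STAR 2.7.9a, featureCounts of Subread 1.6.4 and GRCh38.p7; for the annotation release, strand setting and filters the sources used here give nothing. Replicate numbers were assigned in accession order and pair nothing. No 2 libraries of a group were alike within counting noise (chi-square per degree of freedom 2.98 to 46.2).

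edgeR 4.0.16 in R 4.3.3 was used with its low-count filter by group, TMM scaling, 1 mean per group over all libraries, quasi-likelihood F tests and Benjamini-Hochberg adjustment over 15390 genes, tested first on simulated data. SE were obtained from each log2 fold change and its F value. Correlations used log2 CPM with a prior count of 2. Coordinates, exon lengths and overlaps came from GENCODE on GRCh38, matched by unversioned identifier, and promoters from RefSeq. Counting intervals cover counting error only.

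All 9 members were reported. From each other list and contrast, up to 4 called genes with the largest change could be named, plus a set of regulators, the siRNA targets and MALAT1 as levels, and the genes most correlated with each member. A regulator among these is not reported here. Members and lists were chosen with earlier results of these data known. Alternatives were DESeq2 1.42.0, 2 other scalings, no filter, a MALAT1 covariate, only the groups compared, and omitted libraries.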

Additional observations from a re-analysis of the deposited data

Results flagged for a closer look

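B2M stood out because its response to R1881 differed between siRNA arms by a test of the difference itself. The log2 response with UPF1 siRNA minus that with control siRNA was -0.81 (edgeR adjusted p = 3.4e-04). For RCOR1 siRNA it was -0.51 (edgeR adjusted p = 0.023). In both arms all 3 R1881 libraries lay above all 3 vehicle libraries, so the direction of the response was shared and its size differed. Groups of 3 are too small for the check of single outlying libraries.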

How the results depend on the processing

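Over 25 alternative settings per contrast (24 for HLA-B with R1881 and UPF1 siRNA), no called member changed sign. The calls of B2M and NLRC5 for UPF1 against control siRNA in vehicle, for R1881 in the control and RCOR1 arms, of NLRC5 for R1881 in the UPF1 arm, of B2M for UPF1 against RCOR1 siRNA in vehicle and of the B2M difference in R1881 response for UPF1 siRNA passed under every one of them. B2M for R1881 with UPF1 siRNA was lost only without both UPF1 libraries low in MALAT1 (edgeR adjusted p = 0.059), as was TAP1 for UPF1 against RCOR1 siRNA in R1881 (edgeR adjusted p = 0.18).

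Members called out of 9 moved as follows. For UPF1 against control siRNA in vehicle (2 called), it was 3, with HLA-E, without a filter or with MALAT1 as covariate. For UPF1 against control siRNA in R1881 (1 called), it was 2 with only the groups compared, HLA-B and HLA-C, and 0 without both low-MALAT1 libraries. For RCOR1 against control siRNA in vehicle (1), it was 0 in both of these settings, and without a filter HLA-B was called in place of B2M. For RCOR1 against control siRNA in R1881 (1), it was 0 with library size alone, relative log expression factors, only the groups compared, DESeq2 or without both libraries, and 3, with TAP1 and TAPBP, with the covariate; without a filter TAPBP was called in place of B2M. For R1881 with control siRNA (2), it was 3, with TAPBP, without a filter. For R1881 with UPF1 siRNA (3), it was 1 without both libraries and 2 with only the groups compared, where HLA-B was not tested. For R1881 with RCOR1 siRNA (2), it was 3, with TAPBP, with library size alone and 4 without a filter, with the covariate or with only the groups compared, TAPBP and HLA-B being added. For UPF1 against RCOR1 siRNA in vehicle (2), it was 1 with library size alone, only the groups compared or without both libraries, and 4, with HLA-B and TAP1, with the covariate; without a filter HLA-B was called in place of NLRC5. For UPF1 against RCOR1 siRNA in R1881 (3), it was 0 without both libraries, 4, with HLA-E, without a filter and 2, without TAPBP, with the covariate. For the UPF1 difference in response (1), it was 2, with HLA-B, without a filter or with the covariate, and for the RCOR1 difference (1), 0 with library size alone, relative log expression factors, only the groups compared or without both libraries, with TAPBP in place of B2M without a filter. All other settings, apart from the omission of single libraries, gave the counts in parentheses. The cause was not tested.

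Leaving out 1 library at a time gave 2 to 3, 1 to 2, 0 to 1 and 0 to 2 members for UPF1 and then RCOR1 against control siRNA, each in vehicle and then in R1881. It gave 2 to 4 for R1881 with UPF1 siRNA, 2 to 4 with RCOR1 siRNA and 2 to 3 with control siRNA. UPF1 against RCOR1 siRNA gave 1 to 3 in each treatment, and the differences in response 1 to 2 for UPF1 and 0 to 1 for RCOR1. Library size alone moved the median of all genes by -0.22 for R1881 with control siRNA, where B2M still stood at 0.91. No paired analysis was possible because the labels give no replicate numbers. HLA-B, TAP2 and HLA-F are limited by their low counts.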
